A study of Mus musculus with 26 samples.

Results

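The genes described here are 10 markers of leukocytes, chosen by symbol because they are widely used to tell mononuclear phagocytes from T cells. They were chosen with earlier results of these data known. Both count tables hold a row for each of them among 23337 genes. *Ptprc* encodes CD45, which nearly all leukocytes carry. *Csf1r*, *Cx3cr1*, *Itgam*, *Lyz2*, *Cd68*, *Mrc1* and *Cd163* are genes of monocytes, macrophages and related phagocytes, and *Cd3e* and *Cd8a* are genes of T cells. RNA was sequenced from the initial segment (IS) of the epididymis, the caput and the testis of mice aged 3 months on a mixed C57Bl/6N; 129 hybrid background. The ArKI mice carry a constitutive knock-in allele, present in all their cells with no Cre or transgene, and the WT mice do not carry it. The IS and caput had 5 ArKI and 5 WT samples each and the testis 3 of each, 26 samples in all. Counts per gene do not show which allele a sample carries, so they give no direct check of the genotype labels.

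Mononuclear phagocytes depend on signals through the CSF1 receptor, which binds CSF1 and IL34, and many tissue phagocytes also carry CX3CR1, the receptor of fractalkine (CX3CL1). In the mouse epididymis such cells line the base of the epithelium, and in the IS they are known for long projections that reach between the epithelial cells towards the lumen. In the testis, macrophages lie in the interstitium and around the seminiferous tubules. T cells are recognised by the CD3 complex of the T cell receptor, of which CD3ε is a subunit, and by the coreceptors CD4 and CD8.

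Depth per sample was 5829074 to 9770625 counts for the IS, 4125768 to 11913469 for the caput and 14077013 to 21376604 for the testis. Values are CPM, counts scaled to a common library size with edgeR's TMM factors, within the 20 epididymal samples or within the 6 testis samples. *Lcn5*, a caput gene, was at 15357 ± 1349.9 CPM in the WT caput and 83.5 ± 20.6 CPM in the WT IS (SD, n = 5). In ArKI mice it was at 12713 ± 1675 CPM in the caput and 61.2 ± 19.4 CPM in the IS. *Crisp1*, a further gene looked at as a caput marker, went the other way in WT mice, with 382 ± 347 CPM in the caput and 2088 ± 417 CPM in the IS, and in ArKI mice it was at 960.4 ± 1147 CPM in the caput and 349 ± 89.3 CPM in the IS. ArKI caput replicate 2, the shallowest sample, stood apart: its median correlation with its group was 0.981, where the other ArKI caput samples had 0.988 to 0.992, and *Crisp1* was at 2943 CPM in it and at 107 to 907 CPM in the others. In bulk tissue RNA, fewer cells of a type and less RNA per cell cannot be told apart.

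The promoters of 3 members whose levels differ below in different ways are shown, taken from RefSeq on GRCm38.p6. *Itgam* was lower in the ArKI IS, *Lyz2* was higher in the ArKI caput and testis, and *Cd68* was the 1 member higher in the caput than in the IS. Each run ends before the first annotated exon of its gene and is written 5′ to 3′ on the strand of the gene, with matches to GAGGAA, the core bound by the myeloid factor PU.1, in capitals on either strand.
Itgam, chr7:128062390-128062639, plus strand: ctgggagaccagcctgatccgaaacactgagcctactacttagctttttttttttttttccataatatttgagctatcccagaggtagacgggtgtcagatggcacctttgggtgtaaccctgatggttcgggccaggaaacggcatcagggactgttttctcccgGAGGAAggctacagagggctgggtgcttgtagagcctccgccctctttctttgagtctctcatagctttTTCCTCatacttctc
Lyz2, chr10:117282322-117282522, minus strand: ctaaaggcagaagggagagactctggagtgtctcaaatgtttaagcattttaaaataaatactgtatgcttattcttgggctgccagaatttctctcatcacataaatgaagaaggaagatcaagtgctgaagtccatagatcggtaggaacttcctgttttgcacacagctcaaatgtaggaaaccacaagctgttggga
Cd68, chr11:69666171-69666420, minus strand: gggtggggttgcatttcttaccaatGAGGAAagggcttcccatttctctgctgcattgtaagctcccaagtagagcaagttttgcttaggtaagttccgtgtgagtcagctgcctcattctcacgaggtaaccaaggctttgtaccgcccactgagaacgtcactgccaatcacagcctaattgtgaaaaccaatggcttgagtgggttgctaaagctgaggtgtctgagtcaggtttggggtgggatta
Within 250 bases before a RefSeq start of the gene, GAGGAA occurred in 6 of the 9 members with an entry, namely *Ptprc*, *Cd68*, *Itgam*, *Mrc1*, *Cd3e* and *Cd8a*, and in 23.3% of all 32851 promoters. The windows of *Ptprc* and *Cx3cr1* lie inside the annotated gene, after its outermost start, and *Ptprc* also had a window without GAGGAA. The *Itgam* window held it at positions -84 and -15 from the gene start and the *Cd68* window at -225. *Cx3cr1*, *Lyz2* and *Cd163* held no GAGGAA in these windows. Both strands were searched.

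*Lyz2*, *Csf1r*, *Cd68*, *Cx3cr1* and *Mrc1* had higher mean levels per length than *Cd3e* and *Cd8a* in all 6 groups, whereas *Cd163* had a lower mean than *Cd3e* in each of them. *Itgam* and *Ptprc* had higher means than *Cd3e* in the IS and caput and lower means in the testis, in both genotypes. Per length, as CPM per kilobase of exon (RPKM), *Lyz2*, which encodes the lysozyme of myeloid cells, was the highest member in all 6 groups, with 55.6 ± 11.6 RPKM in the WT IS, 20.5 ± 4.05 RPKM in the WT caput (SD, n = 5 each) and 9.36 ± 1.07 RPKM in the WT testis (SD, n = 3). In the WT IS it was followed by *Csf1r* at 16.6 RPKM, *Cd68* at 10.4 RPKM and *Cx3cr1* at 8.64 RPKM, and then by *Itgam*, *Mrc1* and *Ptprc* between 3.42 and 2.27 RPKM. The samples of *Cd68* and *Cx3cr1* overlapped in that group, as did those of neighbours among *Itgam*, *Mrc1* and *Ptprc*. *Cd3e*, *Cd163* and *Cd8a* came last at 1.37, 0.387 and 0.125 RPKM, each separated from the next.

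The order differed in the other tissues. In the WT caput *Cd68*, a lysosomal glycoprotein of phagocytes, came second at 16.7 ± 3.23 RPKM, with samples that overlapped those of *Lyz2* and lay above all those of *Csf1r* at 7.83 ± 1.12 RPKM. In the WT testis *Mrc1*, the mannose receptor of macrophages, came second at 7.77 ± 0.540 RPKM and lay above *Csf1r* at 3.62 ± 0.242 RPKM in all samples (SD, n = 3). *Ptprc* and *Itgam* were near the bottom there, at 0.313 and 0.185 RPKM. *Mrc1* amounted to 216% of *Csf1r* per length in the WT testis on average, to 16.1% in the WT IS and to 25.5% in the WT caput. The testis was sequenced in a run of its own. The tissue and its run cannot be told apart, and these levels are a description.

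**Figure D1:**
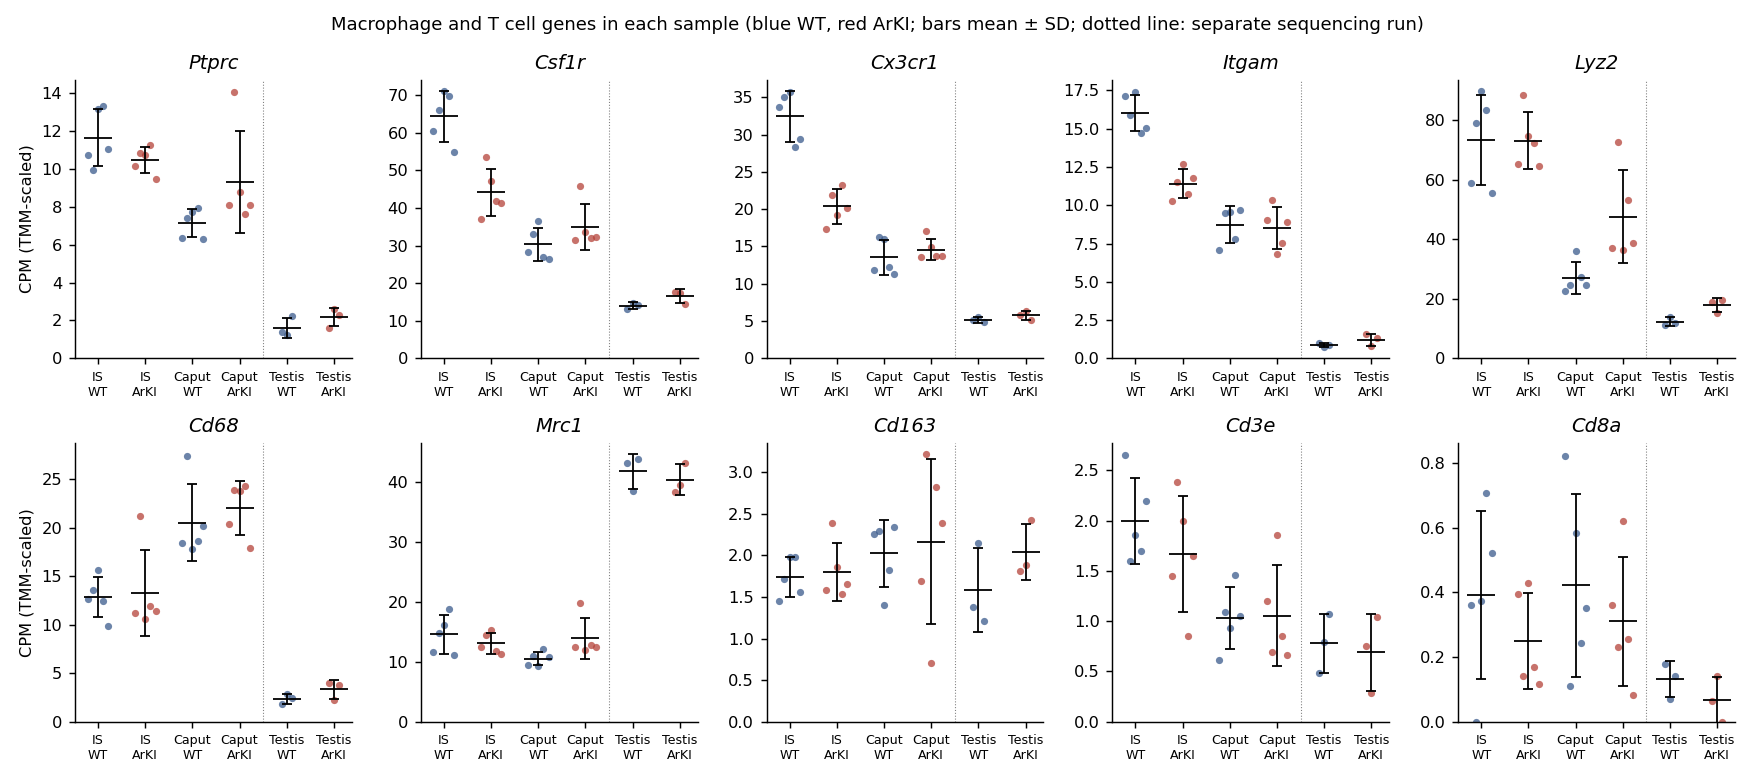
Level of each of the 10 genes in every sample, in TMM-scaled CPM on axes that start at 0, with WT samples in blue, ArKI samples in red and bars for the mean ± SD of each group (n = 5 in the IS and caput, n = 3 in the testis). *Csf1r*, *Cx3cr1* and *Itgam* of the ArKI IS lie below all WT IS samples, *Mrc1* is highest in the testis, and *Cd8a* stays below 1 CPM in every sample.

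*Cd3e* and *Cd8a* were close to the limit of detection. *Cd8a*, the CD8 coreceptor chain of cytotoxic T cells, had 0 to 8 counts in every epididymal sample and 0 to 3 in every testis sample. The detection floor was set at 3 counts per sample, equal to 0.307 to 0.515 CPM for IS samples, 0.252 to 0.727 CPM for caput samples and 0.140 to 0.213 CPM for testis samples, and it covers counting error only. For *Cd3e*, WT samples of the IS gave 12 to 22 counts and ArKI samples 5 to 17. Caput samples gave 6 to 12 counts of it in WT and 3 to 21 in ArKI mice, and testis samples 6 to 18.

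The mean of *Cd3e* and *Cd8a* was 5.57 ± 1.96% of the mean of the 7 phagocyte genes in the WT IS and 4.81 ± 1.29% in the ArKI IS, per length (SD, n = 5). It was 5.60 ± 1.14% in the WT caput and 4.25 ± 2.505% in the ArKI caput. In the testis it was 8.16 ± 2.71% in WT and 5.59 ± 2.42% in ArKI samples (SD, n = 3). *Lyz2*, the highest of the 7 genes, weighs most in this mean. Without it the share was 10.8 ± 3.06% in the WT IS and 11.1 ± 3.00% in the ArKI IS (SD, n = 5). In the caput it was then 7.90 ± 1.86% in WT and 6.96 ± 3.48% in ArKI samples. In the testis it was 11.3 ± 3.59% in WT and 8.77 ± 4.06% in ArKI samples (SD, n = 3). With or without *Lyz2*, the samples of both genotypes overlapped in each tissue. These shares rest on 4 to 28 counts of the T cell genes per sample.

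**Figure D2:**
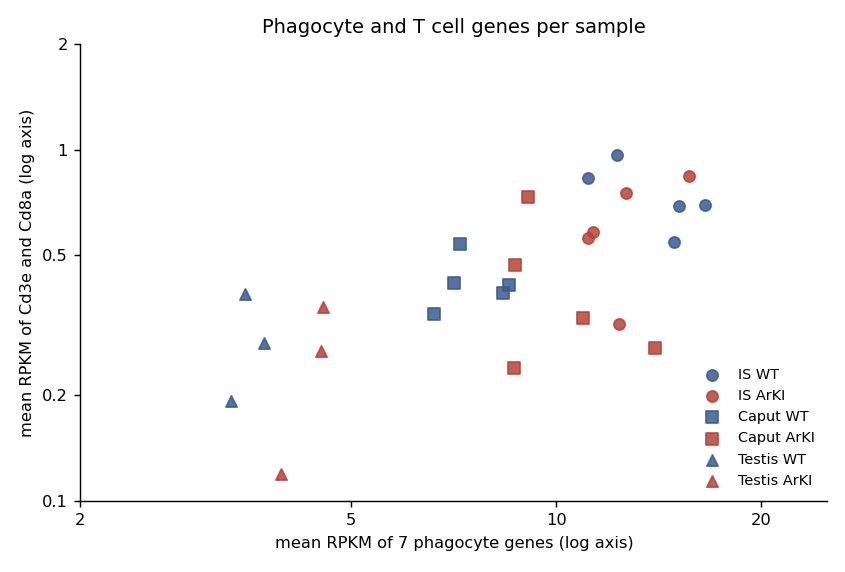
Mean RPKM of the 7 phagocyte genes (x axis) against mean RPKM of *Cd3e* and *Cd8a* (y axis) in each sample, both on log axes, with circles for the IS, squares for the caput and triangles for the testis, WT in blue and ArKI in red. Every sample has a T cell value below 1 RPKM, while the phagocyte value is 3.33 or more.

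To ask whether ArKI changes these genes in the IS, the 5 ArKI and 5 WT samples were compared. *Csf1r*, *Cx3cr1* and *Itgam* fell in the ArKI IS, while *Lyz2*, *Cd68*, *Mrc1*, *Cd163*, *Ptprc* and *Cd3e* did not pass the test. *Csf1r* was at 60.5, 65.9, 71.2, 69.7 and 54.8 CPM in the WT samples and at 37.2, 53.5, 47.1, 41.8 and 41.2 CPM in the ArKI samples. Its highest ArKI sample lay just below its lowest WT sample, and the log2 fold change was -0.54 with a standard error of 0.096 (adjusted p = 0.000672, edgeR).

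*Cx3cr1* had the largest difference of the 3 genes. It was at 33.8, 35.0, 35.7, 28.3 and 29.4 CPM in the WT IS and at 17.3, 21.9, 19.3, 23.2 and 20.2 CPM in the ArKI IS. All ArKI samples lay well below the WT samples, with a log2 fold change of -0.68 and a standard error of 0.090, a level 1.60-fold lower (adjusted p = 1.17e-05, edgeR). *Itgam*, the CD11b chain of the integrin CR3, was at 17.1, 15.9, 17.4, 14.7 and 15.02 CPM in WT and at 10.3, 11.52, 12.7, 10.7 and 11.8 CPM in ArKI samples. These groups were separated as well, with a log2 fold change of -0.49 and a standard error of 0.099 (adjusted p = 0.000928, edgeR).

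The 3 genes that fell are 3 of 9 members tested, where 14.6% of 13434 genes were called lower and 15% higher at an adjusted p below 0.05. Their groups did not overlap, which held in that direction for 10.4% of all genes. At the thresholds of the study (FDR below 0.01 and a fold change above 2) 0 members were called by edgeR, DESeq2 or limma, where 4.04% of all genes were, and 3 members had an unadjusted p below 0.05. The 3 calls held without any 1 of the 10 samples.

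*Lyz2* in the IS was at 58.8, 79.1, 89.5, 83.3 and 55.4 CPM in WT and 65.3, 88.3, 74.6, 72.3 and 64.5 CPM in ArKI samples. The groups overlapped fully, with means of 73.2 and 73.0 CPM and a log2 fold change of -0.0011 with a standard error of 0.16. *Lyz2* therefore stood at 331 ± 37.3% of *Csf1r* per length in the WT IS and at 487 ± 24.99% in the ArKI IS (SD, n = 5), with ranges of 286 to 370% and 460 to 516%. *Mrc1* stood at 16.1 ± 2.12% of *Csf1r* in WT and 21.4 ± 2.13% in ArKI samples, and *Cx3cr1* at 52.2 ± 6.17% and 48.0 ± 6.30%.

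The other members of the IS had small estimated differences. The log2 fold change was -0.15 for *Ptprc* with a standard error of 0.12, -0.15 for *Mrc1* with a standard error of 0.14 and 0.050 for *Cd68* with a standard error of 0.19. It was 0.062 for *Cd163*, the haemoglobin scavenger receptor, with a standard error of 0.24. *Cd3e* had -0.25 with a standard error of 0.27 (adjusted p = 0.538, edgeR). *Cd68* of ArKI IS replicate 2 was at 21.2 CPM, where the other ArKI IS samples had 10.6 to 11.9 CPM.

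Of 28 further phagocyte genes, 25 were tested in the IS, 3 were lower and 1 was higher, where 14.6% of all genes were lower and 15% higher. The median log2 fold change of the list was -0.18 and that of all genes -4.4e-05. *Adgre1*, the F4/80 antigen, which the tables list under its older symbol *Emr1*, had -0.52 (adjusted p = 0.00899, edgeR) and *C1qa*, a complement subunit made by macrophages, -0.39 (adjusted p = 0.0173, edgeR). *Lyve1*, a hyaluronan receptor of lymphatic endothelium and of some macrophages, rose by 1.88 (adjusted p = 6.54e-10, edgeR).

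Of 7 endothelial markers 6 were tested, 5 were lower and *Flt4*, a receptor of lymphatic endothelium, was higher by 0.79, beside the same 14.6% and 15% of all genes. The summed endothelial list ranged from 99.4 to 110 CPM in the ArKI IS and from 122 to 147 CPM in the WT IS. *Emcn*, a sialomucin of capillaries and veins, had a log2 fold change of -0.62 and *Kdr*, the VEGF receptor, -0.58. All 5 tested genes of MHC class II antigen presentation rose, among them *Ciita*, the transactivator of the class, by 1.10 and *H2-Aa* by 1.00. Both sperm transcripts that could be tested fell in the ArKI IS, with a sum over 6 genes of 1.26 to 4.26 CPM against 8.76 to 58.1 CPM in WT samples. Whether the endothelial, MHC class II or sperm transcripts have a part in the differences of *Csf1r*, *Cx3cr1* and *Itgam* was not tested.

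In the caput *Lyz2* was the 1 member that rose in ArKI samples, among 8 tested. It was at 22.4, 24.5, 36.0, 27.4 and 24.6 CPM in WT and at 36.9, 72.7, 36.4, 53.0 and 38.6 CPM in ArKI samples. The groups were separated by a narrow gap, WT replicate 3 lay close to the lowest ArKI samples, and ArKI replicate 2 was the highest. The log2 fold change was 0.78 with a standard error of 0.23, a level 1.72-fold higher (adjusted p = 0.0312, edgeR).

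The *Lyz2* call in the caput is near its threshold. Without WT replicate 1, 2, 4 or 5 or without ArKI replicate 4 the adjusted p was 0.0614 to 0.0716 (edgeR), and without ArKI replicate 2 the log2 fold change was 0.63 (adjusted p = 0.0180). With 1 of 8 members called higher, the share of members was close to that of all genes, 13.7% of 13726 higher and 14% lower. Groups without overlap in the higher direction were 9.77% of all genes. At the thresholds of the study 0 members were called by edgeR, DESeq2 or limma, where 4.98% of all genes were, and 2 members had an unadjusted p below 0.05.

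*Mrc1* came closest of the others, with 9.43, 11.01, 9.34, 12.1 and 10.8 CPM in the WT caput and 12.4, 19.8, 11.9, 12.8 and 12.4 CPM in the ArKI caput. The lowest ArKI sample lay just below the highest WT sample, and the log2 fold change of 0.36 with a standard error of 0.13 did not pass (adjusted p = 0.0554, edgeR). With all samples it passed under scaling by library size only (adjusted p = 0.0437) and with every gene of at least 1 count tested (adjusted p = 0.0412, both edgeR). It also passed without WT replicate 4 (adjusted p = 0.0460) and without ArKI replicate 3 (adjusted p = 0.0413), and without ArKI replicate 2 it was 0.25 (adjusted p = 0.0868).

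*Csf1r*, *Cx3cr1* and *Itgam*, which were lower in the ArKI IS, had log2 fold changes of 0.18, 0.091 and -0.057 in the caput with standard errors of 0.11, 0.12 and 0.14. None of these passed the test. *Ptprc* had 0.33 with a standard error of 0.16, and its ArKI replicate 2 at 14.04 CPM was far above the other ArKI samples at 7.59 to 8.77 CPM. Without that sample *Ptprc* had 0.20 (adjusted p = 0.266) and *Csf1r* 0.10 (adjusted p = 0.423, edgeR). *Cd68* and *Cd163* had 0.099 and 0.036 with standard errors of 0.12 and 0.31.

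*Cd3e* was too low in the caput for the fit. Its samples had 0.615, 1.09, 0.934, 1.46 and 1.05 CPM in WT and 1.205, 0.691, 1.86, 0.853 and 0.659 CPM in ArKI mice, and the groups overlapped fully (exact permutation test, two-sided, p = 0.976). *Cd8a* was tested the same way in each tissue, with p = 0.397 in the IS, 0.532 in the caput and 0.20 in the testis, where an exact permutation test of 3 against 3 samples cannot go below 0.10. The family of these 4 tests had adjusted values of 0.709 to 0.976.

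**Figure D3:**
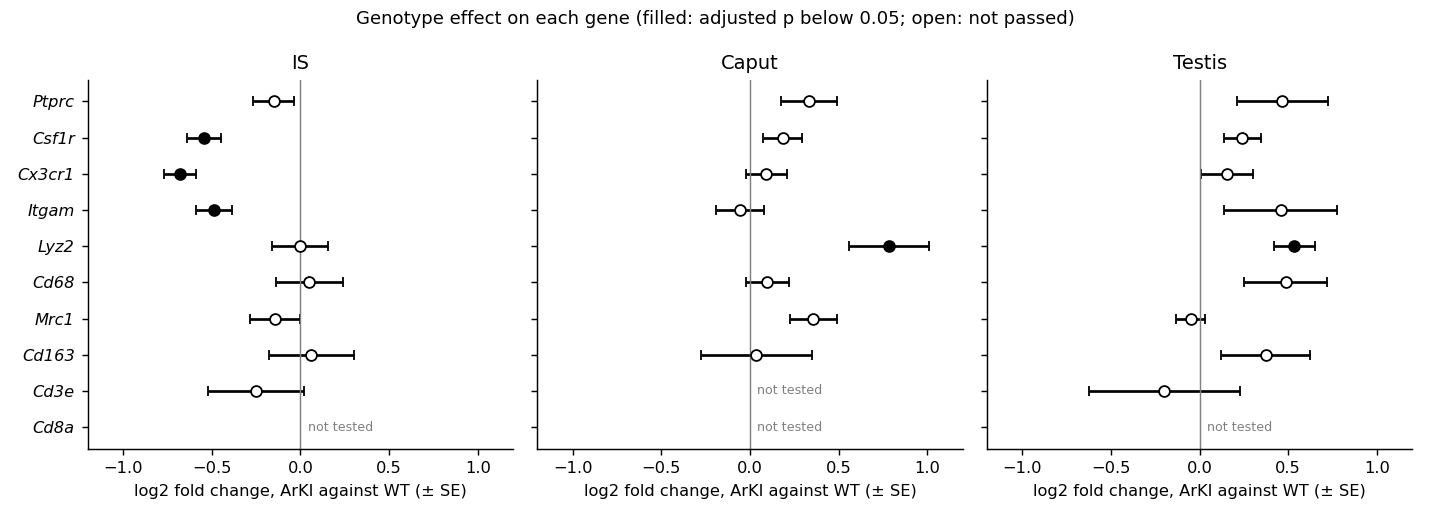
Log2 fold change of ArKI against WT with its standard error for each gene in the IS, caput and testis, filled where the adjusted p was below 0.05 and open where it was not. *Csf1r*, *Cx3cr1* and *Itgam* are filled left of 0 in the IS, and *Lyz2* is filled right of 0 in the caput and testis.

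Most of the further phagocyte genes had positive estimates in the caput. Of 26 tested, 24 were above 0, with a median log2 fold change of 0.39 where the median over all genes was 0.0017, but 4 passed the test, all of them higher, where 13.7% of all genes were higher. *Lyve1* was at 3.69, 5.02, 4.67, 3.53 and 4.68 CPM in WT and at 18.4, 23.0, 15.1, 20.8 and 20.2 CPM in ArKI samples. These groups were far apart, with a rise of 2.16 on the log2 scale (adjusted p = 5.28e-09, edgeR). *Msr1*, a scavenger receptor of macrophages, rose by 1.28 (adjusted p = 0.00707), *Fcgr3*, an Fc receptor of phagocytes, by 0.82 (adjusted p = 0.00504) and *Itgb2*, the integrin chain that pairs with the product of *Itgam*, by 0.58 (adjusted p = 0.0383, all edgeR). *Msr1* was low there, on 3 to 9 counts per WT caput sample and 15 to 21 per ArKI caput sample.

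ArKI caput replicate 2 had the highest sum over the phagocyte list, 704 CPM, where the other ArKI caput samples had 443 to 471 CPM and the WT caput 370 to 448 CPM. Without that sample 5 of 26 phagocyte genes were higher and the median log2 fold change was 0.22. The endothelial list was at 70.2 to 98.8 CPM in ArKI and 52.5 to 56.5 CPM in WT samples, with 3 of 6 genes higher where 13.7% of all genes were, *Flt4* by 1.97 and *Kdr* by 0.91. All 4 MHC class II genes tested rose, *Cd74*, the invariant chain, by 1.02. *Clec9a*, a receptor of cross-presenting dendritic cells, rose by 1.10, and the other 4 dendritic genes tested did not pass. The 6 sperm transcripts fell, where 14% of all genes were lower, with a sum of 20.7 to 61.7 CPM against 170 to 270.2 CPM in WT samples. The part of these cells in the *Lyz2* difference was not tested.

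In the testis *Lyz2* was again the 1 member that rose, among 9 tested. It was at 11.3, 13.9 and 11.8 CPM in WT and at 18.8, 15.3 and 19.5 CPM in ArKI samples. The groups were separated, with a log2 fold change of 0.53 and a standard error of 0.11, a level 1.45-fold higher (adjusted p = 0.0111, edgeR). Without WT replicate 1 the adjusted p was 0.0686, without WT replicate 3 it was 0.0856 and without ArKI replicate 3 it was 0.0613.

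Among all 15838 genes tested in the testis 1.64% were called higher and 0.328% lower, and 9.35% had groups without overlap in the higher direction. At the thresholds of the study (FDR below 0.2 and a fold change above 2) 0 members were called by edgeR, DESeq2 or limma, where 0.833% of all genes were, and 3 members had an unadjusted p below 0.05. *Csf1r* was at 13.0, 14.9 and 14.2 CPM in WT and 17.7, 17.4 and 14.4 CPM in ArKI samples. Its groups overlapped, and the log2 fold change of 0.24 with a standard error of 0.11 did not pass (adjusted p = 0.323, edgeR). *Mrc1* had -0.050 with a standard error of 0.080, with 43.1, 38.4 and 43.7 CPM in WT and 38.3, 39.5 and 43.2 CPM in ArKI samples. *Ptprc*, *Itgam*, *Cd68* and *Cd163* had 0.47, 0.46, 0.49 and 0.37 with standard errors of 0.26, 0.32, 0.23 and 0.25, and none passed.

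Of the further phagocyte genes 25 were tested in the testis, 22 had estimates above 0 and 2 passed, both higher, where 1.64% of all genes were higher. *Lyve1* was low there, at 0.240, 0.144 and 0.214 CPM in WT and 0.751, 0.705 and 1.04 CPM in ArKI samples, on 2 to 4 counts per WT sample, a rise of 2.00 on the log2 scale (adjusted p = 0.0173, edgeR). *C1qb*, a further complement subunit, rose by 0.49 (adjusted p = 0.0290, edgeR). The list had a median of 0.32, where the median over all genes was -0.0023. The 7 endothelial genes tested had log2 fold changes of -0.17 to 0.37, with sums of 48.0 to 55.1 CPM in ArKI and 51.8 to 55.1 CPM in WT samples, and 0 passed by edgeR, with 1 at an unadjusted p below 0.05. In the same samples 1 of 4 MHC class II genes tested was higher, *H2-Eb1* by 0.98 (adjusted p = 0.0157, edgeR), and the other 3 did not pass.

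*Lyz2* has a close copy, *Lyz1*, whose lysozyme is made mainly by Paneth cells of the intestine. Of the 50-base windows in the *Lyz2* transcript, 195 of 1267 also occur in *Lyz1* and 84.6% occur in no other gene. The authors kept uniquely mapped reads, so reads from the shared windows are not counted for either gene. *Lyz1* was at most 0.853 CPM in any sample. *Itgam* overlaps a model on its own strand by 3450 bases and *Cd3e* one on the other strand by 135 bases. Neither model has a row in the count tables, and the use of strand in counting is not given in the sources used here.

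To ask how the segments differ, the caput was compared with the IS within each genotype, in 1 fit of the 20 epididymal samples. Both segments came from 5 mice of each genotype, and the labels do not tie an IS sample to the caput sample of its mouse, so the fit treats the samples as independent. In WT mice 7 of 9 members tested were lower in the caput and *Cd68* was higher, while *Cd163* did not pass. The log2 fold change was -1.44 for *Lyz2* with a standard error of 0.20, -1.26 for *Cx3cr1* with 0.10 and -1.08 for *Csf1r* with 0.11. It was -0.88 for *Itgam* with a standard error of 0.11, -0.70 for *Ptprc* with 0.14 and -0.46 for *Mrc1* with 0.14. *Cd3e* had -0.96, standard error 0.31 (adjusted p = 0.00678, edgeR), on the low counts given above.

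Of these 7 genes, *Mrc1* had overlapping groups and the other 6 were separated. *Cd68* was at 12.7, 13.6, 15.6, 12.4 and 9.91 CPM in the WT IS and 18.5, 27.5, 17.9, 18.6 and 20.2 CPM in the WT caput. Every caput sample lay above every IS sample, and the level was 0.68 higher on the log2 scale with a standard error of 0.17 (adjusted p = 0.00120, edgeR). The segments differed in most genes: 35% of 14329 genes were lower in the caput and 34.4% higher, and 28.7% were lower and 27.9% higher without overlap. All 8 calls held without any 1 sample.

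In ArKI mice 4 of 9 members were lower in the caput and 1 was higher, where 33.2% of all genes were lower and 33% higher. The log2 fold change was -0.66 for *Lyz2* with a standard error of 0.19, -0.50 for *Cx3cr1* with 0.11, -0.45 for *Itgam* with 0.12 and -0.36 for *Csf1r* with 0.11. *Cd68* was higher by 0.73 with a standard error of 0.17. *Ptprc* had -0.23 and did not pass by edgeR with all samples (adjusted p = 0.143). It passed by limma with all samples (-0.28, adjusted p = 0.0457) and by edgeR without ArKI caput replicate 2 (-0.36, adjusted p = 0.00841). *Cd3e* had -0.63 (adjusted p = 0.0803), and passed without ArKI IS replicate 4 (adjusted p = 0.0347) or without ArKI caput replicate 3 (adjusted p = 0.0118, edgeR). *Mrc1* had 0.039 with a standard error of 0.14.

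The difference between the genotype effects of both segments was tested as an interaction, positive where ArKI against WT is higher in the caput than in the IS. *Cx3cr1* and *Csf1r* passed, 2 of 9 members, where 7.38% of all genes passed above 0 and 7.77% below 0. *Cx3cr1* had 0.76 with a standard error of 0.15 (adjusted p = 0.000765, edgeR) and *Csf1r* 0.72 with a standard error of 0.16 (adjusted p = 0.00306, edgeR). Without ArKI caput replicate 2 they had 0.72 (adjusted p = 0.00117) and 0.64 (adjusted p = 0.00250, edgeR).

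*Itgam*, *Ptprc*, *Mrc1* and *Lyz2* had interaction values of 0.42, 0.47, 0.50 and 0.78 with adjusted p values of 0.0795 to 0.103 for the first 3 and 0.0695 for *Lyz2* (edgeR), and none passed. With all samples *Lyz2* passed by DESeq2 (0.81, adjusted p = 0.0290) and by limma (0.70, adjusted p = 0.0444). By edgeR it passed without WT IS replicate 5 (adjusted p = 0.0428) or WT caput replicate 3 (adjusted p = 0.0379), and *Itgam* without ArKI caput replicate 3 (adjusted p = 0.0405, edgeR). *Cd68*, *Cd163* and *Cd3e* had 0.045, -0.027 and 0.33 with standard errors of 0.24, 0.40 and 0.44. Of the further phagocyte genes 5 of 26 passed above 0, among them *Msr1* with 1.57, *Itgb2* with 0.93 and *Fcgr3* with 0.82, and 24 had estimates above 0, where 7.38% of all genes passed above 0. The value of *Msr1* rests on the low WT caput counts given above. Of 7 endothelial genes 4 passed above 0, *Kdr* with 1.47 and *Flt4* with 1.18 among them, and their part in the result for *Csf1r* and *Cx3cr1* was not tested.

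**Figure D4:**
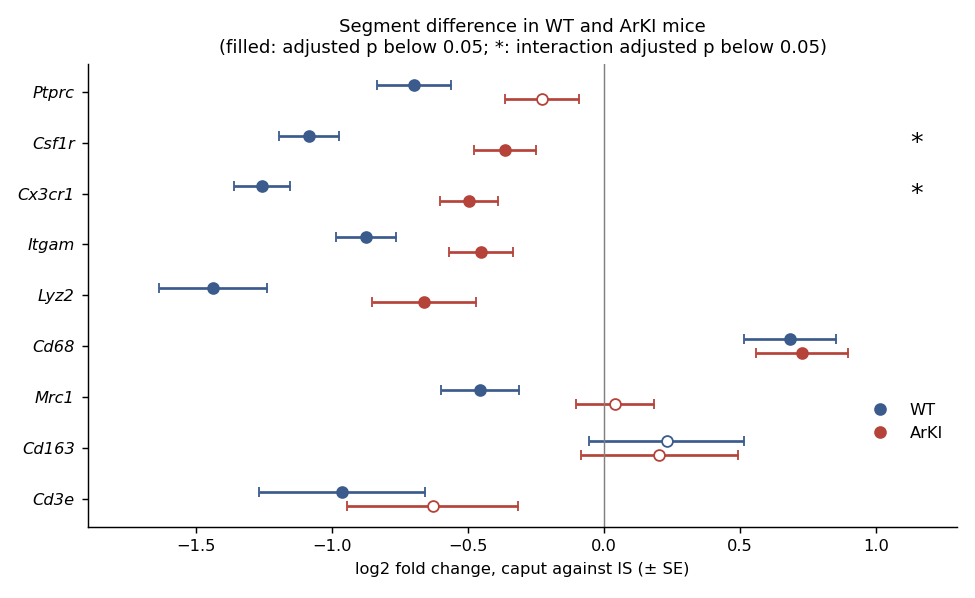
Log2 fold change of the caput against the IS with its standard error for 9 genes, in WT mice (blue) and ArKI mice (red), filled where the adjusted p was below 0.05, with a star where the interaction of segment and genotype had an adjusted p below 0.05. *Csf1r* and *Cx3cr1* carry the star, with -1.08 and -1.26 in WT and -0.36 and -0.50 in ArKI mice, and *Cd68* lies right of 0 in both genotypes.

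Ligands of both receptors were measured in the same samples. *Csf1* was at 34.7 ± 4.46 CPM in the WT IS, 36.0 ± 2.73 CPM in the ArKI IS, 34.3 ± 2.37 CPM in the WT caput and 35.5 ± 2.03 CPM in the ArKI caput (SD, n = 5 each), and none of its tests passed. *Il34* was an IS gene, at 84.9 ± 7.07 CPM in the WT IS and 4.46 ± 1.61 CPM in the WT caput, a log2 fold change of -4.26 with a standard error of 0.16. It had -0.16 with a standard error of 0.11 in the ArKI IS against WT and fell by 0.73 in the ArKI caput (adjusted p = 0.0330, edgeR), where its groups overlapped.

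*Cx3cl1* had the opposite pattern to *Il34*, with 40.7 ± 5.31 CPM in the WT IS and 122 ± 14.8 CPM in the WT caput, a log2 fold change of 1.59 with a standard error of 0.099. ArKI against WT did not pass the test in either segment, with log2 fold changes of 0.011 and 0.025 and standard errors of 0.096 and 0.082. In the testis *Cx3cl1* was at 4.92, 4.24 and 4.84 CPM in WT and 7.14, 6.77 and 7.16 CPM in ArKI samples, separated groups with a rise of 0.58 (adjusted p = 0.0246, edgeR). Its receptor gene *Cx3cr1* had 0.16 with a standard error of 0.15 there.

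Among WT samples 21 of 26 further phagocyte genes tested were lower in the caput than in the IS and *Lgmn*, a lysosomal protease, was higher by 0.70, where 35% of all genes were lower and 34.4% higher. The list had a median log2 fold change of -0.96, where the median over all genes was -0.00063. *Msr1* had -1.60, *Ms4a7*, a macrophage surface gene, -1.53 and *Mpeg1*, the pore-forming protein of phagocytes, -1.40. Here too *Msr1* rests on low WT caput counts. In ArKI mice 13 of 26 were lower and 1 higher, with a median of -0.43, where 33.2% of all genes were lower and 33% higher. Of the 7 endothelial genes 6 were lower in the WT caput, with sums of 52.5 to 56.5 CPM against 122 to 147 CPM in the WT IS. All 5 MHC class II genes were lower and all 6 sperm transcripts higher, the latter with sums of 170 to 270.2 CPM against 8.76 to 58.1 CPM. The part of these lists in the segment difference was not tested.

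The wider list held 18 T cell genes. Of 7 tested between WT segments 3 were lower and 2 higher in the caput, where 35% of all genes were lower and 34.4% higher. The other subunits of the CD3 complex were at or near the floor in the epididymis, with group means of 0.112 to 0.295 CPM for *Cd3d*, 0.324 to 0.706 CPM for *Cd3g* and 0.226 to 0.596 CPM for *Cd247*, and *Cd8b1*, the partner chain of CD8, had 0 to 2 counts in every epididymal sample. *Zap70*, a kinase of T cell receptor signalling, was at 70.5 ± 6.31 CPM in the WT IS and 1.302 ± 0.777 CPM in the WT caput (SD, n = 5). *Lat*, an adaptor of the same pathway, was at 27.1 ± 3.75 and 1.03 ± 0.655 CPM, and *Tcf7*, a transcription factor of T cells and of some epithelia, at 51.5 ± 2.62 and 303.7 ± 31.1 CPM. *Klrb1c*, the NK1.1 gene of natural killer cells, was at 1047 ± 58.9 CPM in the WT IS. These genes are markers of T and natural killer cells, yet they stood far above the CD3 subunits in the WT IS. In the WT caput *Zap70* and *Lat* were near *Cd3e*, which was at 1.03 ± 0.305 CPM there (SD, n = 5).

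In the IS 4 of 6 T cell genes tested were lower in ArKI mice, where 14.6% of all genes were lower, among them *Tcf7* with a log2 fold change of -0.70, *Zap70* with -0.56 and *Lat* with -0.50. *Tcf7*, *Zap70* and *Lat* are genes that stood far above the CD3 subunits in the WT IS, and *Cd3e* itself did not pass. The highest estimate of the 6 was 0.33, which did not pass. In the caput 3 of 4 were lower, where 14% of all genes were, *Cd28*, a costimulatory receptor, with -0.66 (adjusted p = 0.0385), *Skap1*, an adaptor, with -0.29 (adjusted p = 0.0229) and *Tcf7* with -0.23 (adjusted p = 0.0395, all edgeR). The highest estimate of the 4 was 0.53, which had an unadjusted p below 0.05 and did not pass (edgeR). In the testis the 9 T cell genes tested had log2 fold changes of -0.26 to 0.43, and 0 passed by edgeR, with 0 at an unadjusted p below 0.05. There *Cd3d* was at 5.18 ± 1.60 CPM in WT and 7.03 ± 3.59 CPM in ArKI samples, *Cd247* at 3.91 ± 0.596 and 3.44 ± 0.648 CPM and *Cd8b1* at 2.52 ± 0.294 and 2.64 ± 0.573 CPM (SD, n = 3). *Cd3e* was at 0.779 ± 0.295 and 0.691 ± 0.382 CPM and *Cd8a* at 0.131 ± 0.0549 and 0.0679 ± 0.0706 CPM in the same samples, so *Cd8b1* was above its partner *Cd8a* in every testis sample.

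**Figure D5:**
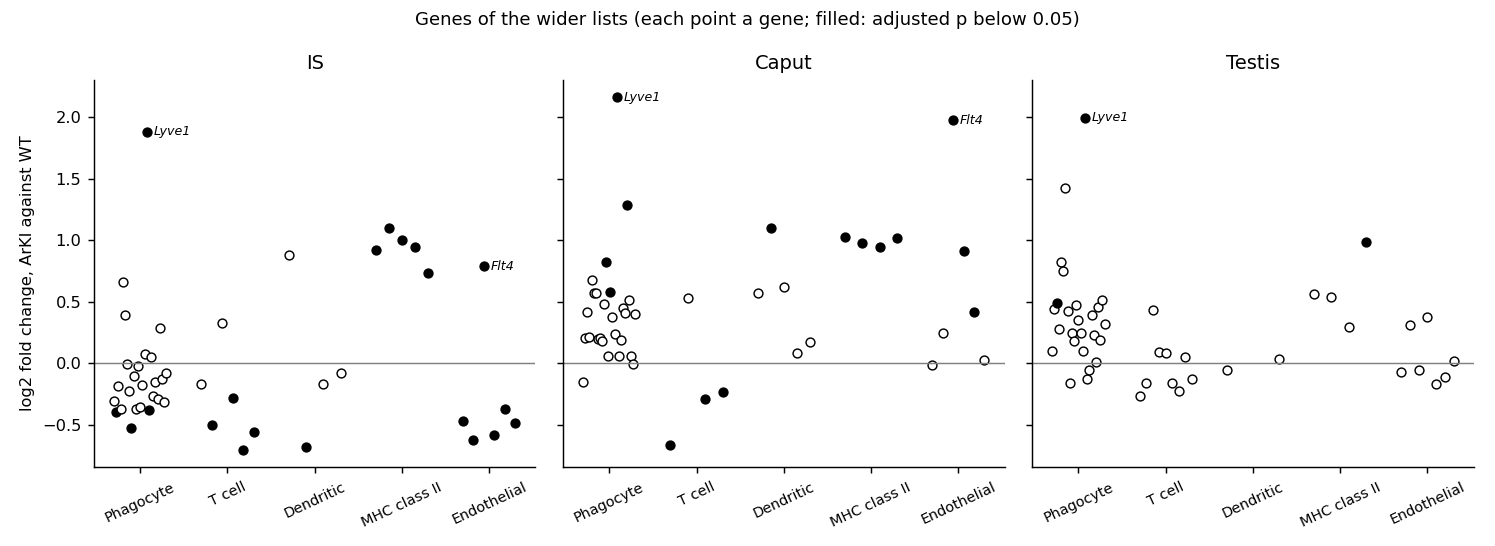
Log2 fold change of ArKI against WT for each tested gene of the wider phagocyte, T cell, dendritic, MHC class II and endothelial lists, in the IS, caput and testis, filled where the adjusted p was below 0.05. *Lyve1* is near 2 in all 3 tissues, and the endothelial genes other than *Flt4* lie below 0 in the IS.

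Some members varied together between samples of 1 group and others did not. Over the 20 epididymal samples, with each gene centred on its group mean on the log2 scale, *Csf1r* had a Pearson correlation of 0.80 with *Lyz2*, 0.70 with *Cx3cr1*, 0.69 with *Ptprc*, 0.63 with *Mrc1*, 0.54 with *Cd68*, 0.50 with *Itgam*, 0.29 with *Cd163* and -0.085 with *Cd8a*. *Cx3cr1* had 0.13 with *Mrc1* and -0.020 with *Cd163*, and *Cd68* had 0.12 with *Itgam*. *Cd8a* had -0.40 with *Cx3cr1* and -0.39 with *Itgam*. *Cd3e* had -0.45 to 0.26 with the other members. Among 11445 genes with a mean of at least 5 CPM, those most like *Csf1r* were *Fam105b* at 0.87, *Mpeg1* at 0.85, *Cpne8* and *Laptm5* at 0.83 and *Sirpa* at 0.82. Those most like *Cd3e* were *Tsc22d3* at 0.80, *Prepl* at 0.78, *Rnf130* and *Trim47* at 0.77 and *Frmd8* at 0.76. The points share libraries and depth, ArKI caput replicate 2 is among them, and *Cd3e* rests on 3 to 22 counts per sample, so these values are a description.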

How the data were processed

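RNA-seq data of 26 samples were analysed. The authors sequenced 50-base single-end reads, aligned them to mm10 with STAR, counted uniquely mapped reads per RefSeq gene with Subread (1.5.1 in the submitters' processing notes, with bcl2fastq 1.8.4), and deposited raw counts of 23337 genes, neither normalized nor filtered. The labels and the methods name different TruSeq kits, and whether counting used strand is not given in the sources used here. Every column of counts was used. The gene changed by the knock-in is not reported here.

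ArKI and WT samples of each tissue were compared separately with edgeR 4.0.16 under R 4.3.3 (filterByExpr with a minimum count of 10 and total of 15, TMM, robust quasi-likelihood test, Benjamini-Hochberg over all genes tested). Segments and their interaction with genotype came from 1 fit of the 20 epididymal samples. Calls were made at an adjusted p below 0.05 with no fold limit and at the thresholds of the study. The study's ROTS test was not run, and limma 3.58.1 and DESeq2 1.42.0 stand as alternatives beside other scalings, filters, a replicate block and leaving out each sample. Standard errors were the fold change divided by the root of the F statistic. Genes too low to fit were compared by exact permutation tests. RPKM used exon bases of RefSeq-matched GENCODE vM21 transcripts on GRCm38, and correlations used log2(CPM + 0.5).

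Replicates are labelled as separate samples, and the labels do not say that equal numbers are 1 mouse. The members and gene lists were chosen with earlier results of these data known. The text names all members, the ligands and partner chains of members and *Lyz1*, at most 3 genes of each other list and comparison with the largest fold change among those past the threshold, and the 5 genes most like *Csf1r* and *Cd3e*. *Lgmn* was named after its values were seen. Of the neutrophil list *Ly6g* was not matched. On data simulated from the IS samples with 200 genes changed, 195 of the 195 tested were recovered with 14 false calls among 13344 genes. For the caput 190 of 191 were recovered among 13621 genes, for the testis 195 of 196 among 15714 and for the interaction 189 of 198 among 14109. Recovery at fold changes as small as those of the members was not tested. Python 3.11.15 and matplotlib 3.10.9 made the figures.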

Additional observations from a re-analysis of the deposited data

Results flagged for a closer look

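*Csf1r* and *Cx3cr1* differed in their ArKI effect between the IS and the caput, with interaction values of 0.72 and 0.76 on the log2 scale by edgeR, described above.

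In groups of 5 samples, 5 of 40 sets of values had a highest sample set apart from the rest by Dixon's ratio, where chance gives about 2. The sets share samples and some members vary together, so the sets are not independent and the excess cannot be judged from these counts. *Ptprc*, *Csf1r* and *Mrc1* were at 14.04, 45.8 and 19.8 CPM in ArKI caput replicate 2, the sample with the highest sum over the phagocyte list. *Cd68* was at 21.2 CPM in ArKI IS replicate 2 and at 27.5 CPM in WT caput replicate 2.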

How the results depend on the processing

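The number of members called was 3 in the IS under every alternative and without any 1 sample. Between WT segments it was 8, and 7 with at least 10 counts in every sample, where *Cd3e* was not tested. In the caput it was 1, and 2 with scaling by library size only or with every gene of at least 1 count, where *Mrc1* joined *Lyz2*. Without 1 sample it was 0 to 2 in the caput, 0 to 1 in the testis (1 with all), 2 to 3 for the interaction (2 with all) and 5 to 6 between ArKI segments (5 with all). With all samples DESeq2 (adjusted p = 0.0290) and limma (adjusted p = 0.0444) added *Lyz2* to the interaction, and limma added *Ptprc* between ArKI segments (adjusted p = 0.0457). Other scalings moved the log2 fold changes of members by at most 0.042.

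The labels give equal replicate numbers no shared origin, and the correlation of deviations between samples of equal number ranged from -0.21 to 0.27, so they were not taken as pairs. Samples numbered 5 matched each other best in all 4 epididymal comparisons (0.19 to 0.27), while those numbered 1 and 2 did so in none. Within a tissue the replicate block joined WT and ArKI samples of equal number, which are from different mice. In the fit of both segments it joined IS and caput samples of equal number and genotype. With the replicate block the members called numbered 3 in the IS, 1 in the caput, 1 in the testis, 8 between WT segments, 5 between ArKI segments and 3 for the interaction. In the caput *Lyz2* then had 0.77 (adjusted p = 0.0647) and *Mrc1* 0.37 (adjusted p = 0.0368), and the interaction of *Lyz2* had 0.77 (adjusted p = 0.00180, edgeR).

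Values near 0 changed sign, and none of them passed the test. *Lyz2* in the IS was 0.00098 with RLE factors, 0.027 by library size only, 0.00070 with at least 10 counts in every sample, 0.018 by limma and 0.013 with the block, and -0.092 to 0.082 without 1 sample. By limma *Cd163* in the caput was -0.13 and *Mrc1* between ArKI segments -0.0014. Without 1 sample the ranges were -0.18 to 0.13 for *Cd68* and -0.058 to 0.11 for *Cd163* in the IS, -0.12 to 0.29 for *Cd163* and -0.12 to 0.017 for *Itgam* in the caput, and -0.64 to 0.23 for *Cd3e* in the testis. They were -0.041 to 0.27 for *Cd68*, -0.20 to 0.21 for *Cd163* and -0.016 to 0.49 for *Cd3e* in the interaction, and -0.071 to 0.11 for *Mrc1* between ArKI segments. The cause was not tested.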
